A study of Mus musculus with 12 samples.

Results

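Small nucleolar RNA (snoRNA) genes were examined in mouse bone marrow-derived macrophages given the peptide hormone hepcidin or phosphate-buffered saline (PBS). The genes were all those on the array whose symbol begins with Snora or Snord followed by a digit, with 1 probe set per gene. This gave 99 genes among 24675 named genes, of which 34 were box H/ACA (Snora) and 65 box C/D (Snord) genes. Members were picked by name and not by measured value, but the set was chosen with earlier results of these data known.

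The marrow came from wild-type mice aged 8 to 10 weeks, whose strain and sex are not given in the labels, and was cultured for 7 days with L cell-conditioned medium as the source of M-CSF. The cells were moved to medium without serum before treatment. The 4 groups were PBS for 1 h, hepcidin for 1 h, PBS for 3 h and hepcidin for 3 h, with 3 arrays each. One protocol in the labels gives the hepcidin dose as 1 µg/ml and the other as 10 µg/ml, so the dose is uncertain. No label says that the arrays of a group came from separate mice or cultures, so the p-values measure only the spread between these arrays, which may be technical.

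Values were log2 signals, and array medians lay between 4.84 and 4.94. Replicates of a group correlated at 0.994 to 0.997 across genes. All 7 measured of 8 macrophage markers were above the median on every array, with means of 8.72 to 12.99. None of the 4 dendritic cell, 4 lymphocyte and 2 erythroid markers measured was above it on every array, against 1 of 5 neutrophil and 2 of 5 fibroblast markers. The array is of bulk RNA, so fewer cells of a type and less RNA per cell cannot be told apart.

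Box C/D snoRNAs guide 2′-O-methylation of ribosomal and spliceosomal RNA and are bound by fibrillarin (Fbl), Nop56, Nop58 and Snu13. Box H/ACA snoRNAs guide pseudouridylation and are bound by dyskerin (Dkc1), Nhp2, Nop10 and Gar1. Most mammalian snoRNAs lie in introns of host genes, often genes of ribosomal proteins or of ribosome assembly, and are released from the spliced intron by debranching and exonuclease trimming. A few are needed to cleave the ribosomal RNA precursor. A probe set for an intronic snoRNA also lies within the primary transcript of its host, and the signals of both cannot be told apart on these arrays.

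By gene span in the RefSeq table (GRCm38.p6), 90 of the 99 snoRNA genes lay within exactly 1 longer gene, 6 lay within several and 3 (Snord118, Snord13 and Snord89) within none. The strand of the host was not used. Of the 90, 71 lay in protein-coding genes and 19 in long noncoding RNA genes, together 64 hosts. Ribosomal protein genes were hosts to 31 snoRNA genes, in 21 hosts. One member, Snord73b, is listed as a small nuclear RNA in that table.

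The 3 snoRNA genes that passed the test at 3 h, described later, lie in Rps3a1, Nop58 and 2410002F23Rik. The 250 bases upstream of the annotated start of each host are shown because an intronic snoRNA is transcribed from the promoter of its host. They are from RefSeq on GRCm38.p6, read 5′ to 3′ on the strand of the gene, with any match to TCTCGCGA on either strand in capitals.
Rps3a1, chr3:86142669-86142918, minus strand: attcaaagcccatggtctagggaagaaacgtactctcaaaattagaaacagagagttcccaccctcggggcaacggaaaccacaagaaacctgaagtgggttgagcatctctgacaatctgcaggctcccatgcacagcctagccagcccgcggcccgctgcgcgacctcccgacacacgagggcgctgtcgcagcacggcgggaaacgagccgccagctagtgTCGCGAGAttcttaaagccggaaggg
Nop58, chr1:59684756-59685005, plus strand: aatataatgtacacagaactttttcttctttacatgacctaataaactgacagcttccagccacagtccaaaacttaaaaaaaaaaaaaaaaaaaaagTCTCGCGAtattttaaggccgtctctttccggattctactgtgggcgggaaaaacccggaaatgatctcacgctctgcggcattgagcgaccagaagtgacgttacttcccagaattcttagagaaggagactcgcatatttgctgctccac
2410002F23Rik, chr7:44246472-44246721, plus strand: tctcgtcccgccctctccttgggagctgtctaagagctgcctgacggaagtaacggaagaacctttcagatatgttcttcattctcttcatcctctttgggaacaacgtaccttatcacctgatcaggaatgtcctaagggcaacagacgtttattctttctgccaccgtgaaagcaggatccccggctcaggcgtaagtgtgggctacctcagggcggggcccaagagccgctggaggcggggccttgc
The match in Nop58 is TCTCGCGA itself and that in Rps3a1 is its reverse complement, while the window of 2410002F23Rik holds neither. This motif was chosen after these sequences were read. It was present in 6 of 58 windows of snoRNA hosts (10.3%) and in 282 of 32851 windows of all genes (0.858%). The 58 windows cover 54 of the 64 hosts. The windows of Nop58 and Rps3a1 are among the 6, so these shares do not test the motif. The E-box CACGTG, a palindrome, was present in 7 of the 58 (12.1%) and in 1978 of all (6.02%). A match is a description of the letters and not a binding site.

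The snoRNA genes gave high signal in every group. On all 12 arrays, 78 of the 99 were above the array median, 14 were below it on all 12, and 7 were on both sides. The median member was above 77% of all named genes, 25 members were in the top 10% and 7 in the top 1%. By comparison, 112 of 543 microRNA genes were above the median on all 12 arrays. Signal depends on the probe set, so these ranks do not order the RNAs by abundance.

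The highest member was Snord100, within the ribosomal protein gene Rps12, at a mean of 12.67. Its signal was 12.64, 12.59 and 12.68 in PBS at 1 h, 12.66, 12.64 and 12.67 in hepcidin at 1 h, 12.64, 12.67 and 12.70 in PBS at 3 h, and 12.70, 12.67 and 12.72 in hepcidin at 3 h. Hepcidin and PBS arrays overlapped at both times, and the 12 values were nearly equal. The next were Snord32a (12.29) and Snord33 (12.17), both in Rpl13a, then Snord82 (11.64, in the nucleolin gene Ncl), Snord99 (11.30, in Snhg12), Snord42a (11.24, in Rpl23a), Snord57 (11.07, in Nop56) and Snord22 (10.70). The lowest was Snord64, in the imprinted noncoding gene Snhg14, at 2.58. Snora35, which lies in the serotonin receptor gene Htr2c, was at 4.63.

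Averaged over the 99 genes, the signal stood above the array median by 2.51 ± 0.07 (SD, n = 3) in PBS at 1 h, 2.57 ± 0.10 in hepcidin at 1 h, 2.52 ± 0.11 in PBS at 3 h and 2.56 ± 0.06 in hepcidin at 3 h. The arrays ran from 2.41 to 2.69 and the groups overlapped. Box C/D genes averaged 2.86, 2.93, 2.89 and 2.93 above the median in the same order, and box H/ACA genes 1.83, 1.90, 1.82 and 1.85. MicroRNA genes averaged -0.79, -0.79, -0.77 and -0.75 relative to it.

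**Figure D1:**
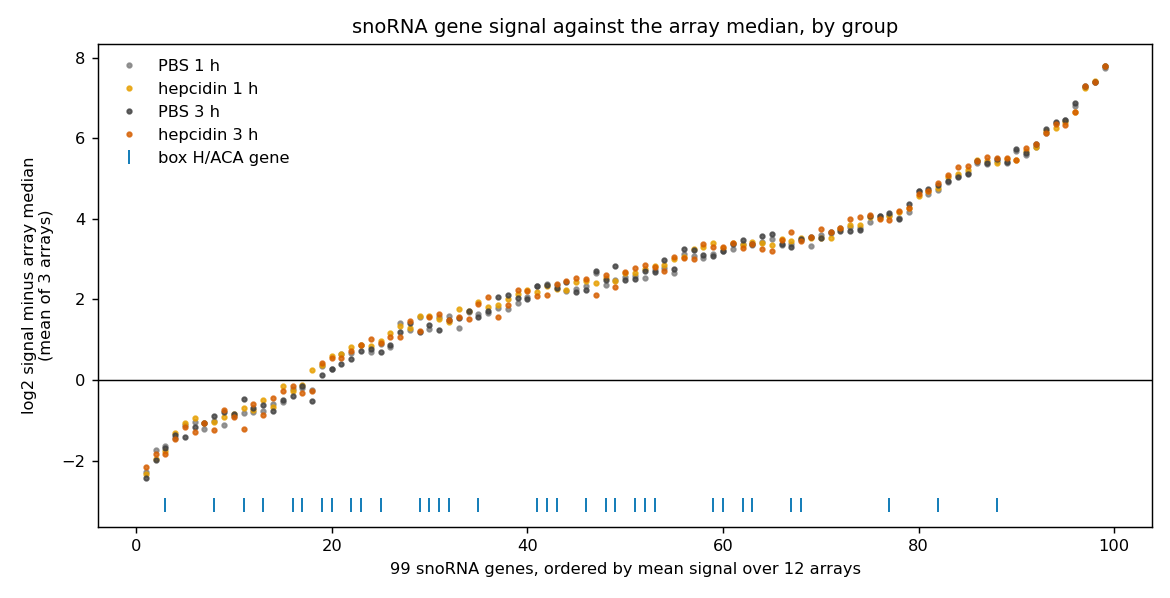
Log2 signal minus the array median (vertical axis, mean of 3 arrays) for each of the 99 snoRNA genes in order of mean signal (horizontal axis), with a point per group and a tick for each box H/ACA gene. The 4 groups lie close together along the whole range, and 78 genes are above the median on all 12 arrays.

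The first question was whether hepcidin changed the snoRNA genes within 1 h. None of the 99 passed limma's test at an adjusted p of 0.05, against 0.559% of all genes (0.527% higher and 0.0324% lower). At an unadjusted p under 0.05 there were 7 (7.07%), 6 higher and 1 lower, against 6.82% of all genes. The unmoderated linear model also called 0. Hepcidin and PBS arrays did not overlap for 13 members (13.1%), 9 higher and 4 lower, against 12.3% of all genes (6.47% higher and 5.86% lower). The median log2 difference was 0.03, against 0.00 for all genes, and became -0.004 without PBS replicate 2 or without hepcidin replicate 1 at 1 h.

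The largest differences without overlap at 1 h were those of Snord4a, in Rpl23a, and Snord14a, in Rps13. Snord4a read 4.67, 4.61 and 4.70 in PBS and 5.26, 5.15 and 4.93 in hepcidin, a log2 difference of 0.45 (SE 0.16, limma adjusted p = 0.571). Snord14a, a copy of the U14 RNA, read 6.15, 6.07 and 6.36 in PBS and 6.87, 6.59 and 6.42 in hepcidin, a difference of 0.43 (adjusted p = 0.588). Hepcidin arrays were all above PBS arrays for both genes, by a narrow margin for Snord14a. On the lower side, Snord70 differed by -0.27, Snora70 by -0.16, Snord34 by -0.14 and Snord2 by -0.06, none past the threshold. The 95% interval of the difference lay within 1.5-fold for 88 of the 99 (88.9%, against 94.1% of all genes) and within 2-fold for all 99. These intervals are per gene and not adjusted for the number of genes.

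At 3 h, 3 snoRNA genes passed the test: Snord73a rose, and Snord70 and Snord88c fell. That is 3.03% of the members, against 5.33% of all genes (2.8% higher and 2.53% lower). All 3 had adjusted p-values just under 0.05. At an unadjusted p under 0.05 there were 25 members (25.3%), 18 higher and 7 lower, against 16.9% of all genes. Arrays did not overlap for 31 members (31.3%), 22 higher and 9 lower, against 21.7% of all genes (11.8% higher and 9.9% lower). The median log2 difference was 0.05, against 0.02 for all genes, and 65 of 99 differences (65.7%) were above 0, against 54.4% of all genes. Members in 1 host share a transcript, so they are not independent of each other. Of the 7 macrophage markers measured, Spi1 rose by 0.30 (limma adjusted p = 0.00706) and the receptor kinase Mertk fell by 1.08 (limma adjusted p = 0.00375) at 3 h. From 1 h to 3 h in hepcidin 3 of the 7 passed, Mertk and Fcgr1 lower and Spi1 higher, and the neutrophil marker Mpo fell by 0.62 (limma adjusted p = 0.0274). The part of these in the snoRNA values was not tested.

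**Figure D2:**
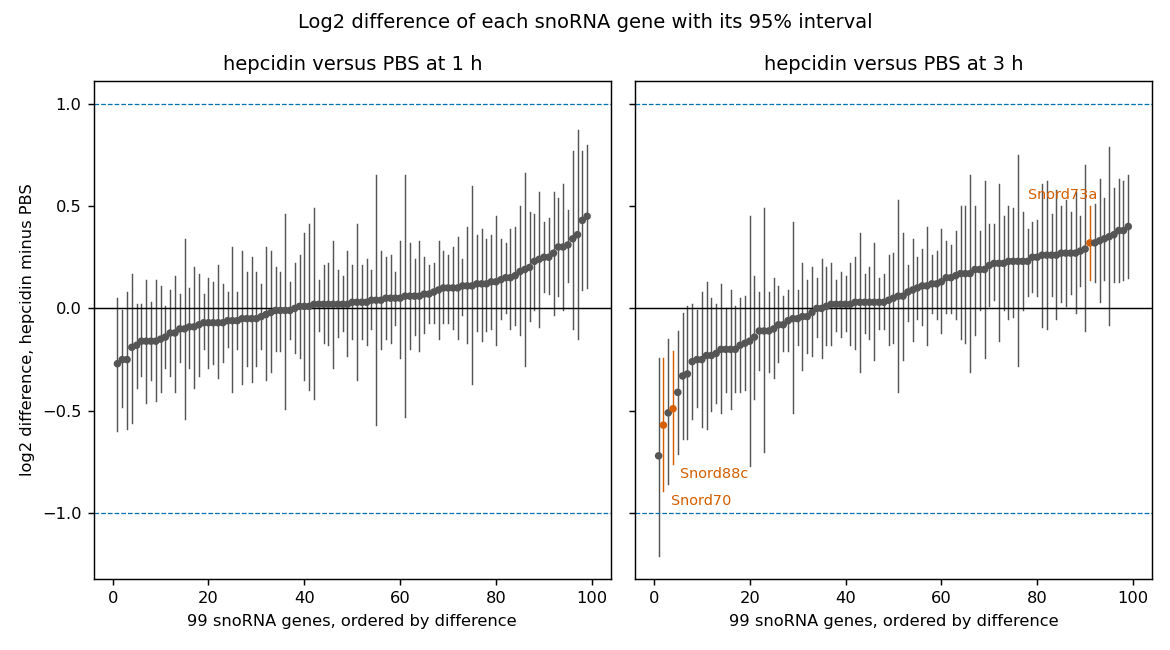
Log2 difference of hepcidin against PBS (vertical axis) at 1 h and at 3 h for the 99 snoRNA genes in order of the difference (horizontal axis), with 95% intervals and dashed lines at 2-fold. The 3 genes past the threshold at 3 h are coloured, and Snora36b has the only interval at 3 h that crosses a 2-fold line.

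Snord73a (Entrez Gene 19870) is a box C/D gene in Rps3a1, a ribosomal protein gene. It read 7.50, 7.49 and 7.70 in PBS at 1 h, 7.93, 7.86 and 7.80 in hepcidin at 1 h, 7.59, 7.70 and 7.63 in PBS at 3 h, and 7.84, 8.06 and 7.99 in hepcidin at 3 h. Every hepcidin array was above every PBS array at both times. At 3 h it rose 1.25-fold, a log2 difference of 0.32 (SE 0.08, 95% interval 0.14 to 0.50, limma adjusted p = 0.0409). At 1 h the difference was 0.31 (adjusted p = 0.252), and the difference between the times was 0.01 (adjusted p = 0.984). Its neighbour in the same host, Snord73b, differed by 0.03 at 1 h and -0.02 at 3 h. The host, whose mean signal of 4.41 was below the array median, differed by -0.20 and 0.53 (adjusted p = 0.115 at 3 h).

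Of the 99 genes, 3 had all 6 hepcidin arrays above all 6 PBS arrays, and none had them all below. Over all genes 1.23% had them above and 1.86% in either direction. This is a count made after the values were seen. The other 2 were Snora62, in Rpsa, and Snord42b, in Rpl23a, both ribosomal protein genes. Snora62 differed by 0.25 at each time (adjusted p = 0.523 and 0.146), and Snord42b by 0.25 and 0.28 (adjusted p = 0.443 and 0.0674).

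Snord70 (Entrez Gene 100217459) lies in Nop58, which encodes a core protein of box C/D particles. It read 7.72, 7.43 and 7.49 in PBS at 1 h, 7.33, 7.22 and 7.28 in hepcidin at 1 h, 7.29, 7.96 and 7.51 in PBS at 3 h, and 7.09, 7.16 and 6.81 in hepcidin at 3 h. The groups did not overlap at either time, and the second PBS array at 3 h was the highest of the 12. It fell 1.48-fold at 3 h, a log2 difference of -0.57 (SE 0.15, 95% interval -0.89 to -0.24, limma adjusted p = 0.0470). At 1 h the difference was -0.27 (adjusted p = 0.810), and that between the times was -0.29 (adjusted p = 0.710). Without the second PBS array at 3 h the difference was -0.38 and did not pass. With the replicate number as a block its adjusted p was 0.057.

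Snord88c (Entrez Gene 100217434) lies in 2410002F23Rik. It read 6.65, 6.80 and 6.59 in PBS at 1 h, 6.66, 6.91 and 6.66 in hepcidin at 1 h, 6.98, 6.94 and 6.91 in PBS at 3 h, and 6.79, 6.28 and 6.30 in hepcidin at 3 h. The groups overlapped at 1 h and not at 3 h, where 1 hepcidin array lay near the PBS arrays. It fell 1.40-fold at 3 h, a log2 difference of -0.49 (SE 0.13, 95% interval -0.76 to -0.21, limma adjusted p = 0.0441), against 0.06 at 1 h. The difference between the times was -0.55 (SE 0.18, adjusted p = 0.264). From 1 h to 3 h Snord88c differed by 0.26 in PBS and by -0.29 in hepcidin, neither past the threshold. Without the first hepcidin array at 3 h the difference at 3 h was -0.65 (limma adjusted p = 0.00207), and that between the times was -0.71 (limma adjusted p = 0.0283). Snord88a, in the same host, differed by -0.05 at 3 h.

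These 3 calls were fragile. Leaving out 1 array at a time, Snord73a still passed in 3 of 12 fits, Snord70 in 1 of 12 and Snord88c in 2 of 12, though the direction held in each. The count of members past the threshold ran from 0 to 5. It was 0 without PBS replicate 2 or hepcidin replicate 3 at 1 h, or PBS replicate 2, PBS replicate 3 or hepcidin replicate 3 at 3 h. It was 1 without the first PBS array at 1 h or the second hepcidin array at 3 h, and 5 without the first hepcidin array at 3 h.

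**Figure D3:**
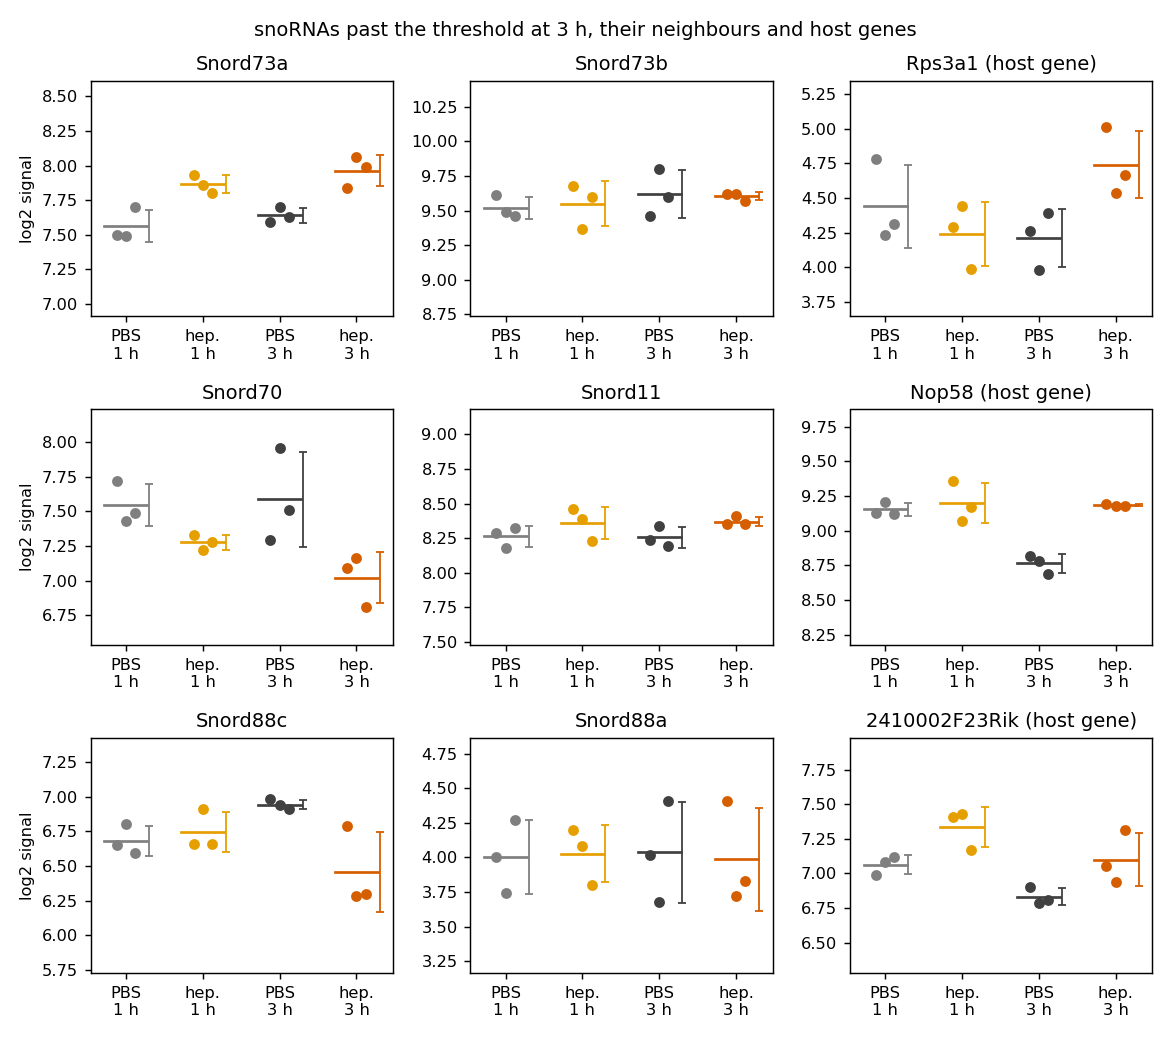
Log2 signal (vertical axis) on each array by group (horizontal axis) for Snord73a, Snord70 and Snord88c, for a neighbouring snoRNA in the same host and for the host gene, with lines at the mean and bars of 1 SD (n = 3). Nop58 is higher and Snord70 lower on every hepcidin array at 3 h than on every PBS array at 3 h.

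Other members were close to the threshold at 3 h without passing it in the main fit. With the replicate number as a block Snord104 did pass (limma adjusted p = 0.0163). Snord104 differed by 0.34 (limma adjusted p = 0.0564), Snord14e, a U14 copy in Hspa8, by 0.32 (0.0585), Snora44 in Snhg12 by 0.40 (0.0718), Snora52 in Rplp2 by 0.38 (0.0758), Snord53 in Wdr43 by 0.36 (0.0824) and Snord66 in Eif4g1 by 0.38 (0.0847). On the lower side were Snora75 in Ncl at -0.51 (adjusted p = 0.113) and Snora36b in Rab3gap2. Snora36b read 3.90, 4.92 and 4.44 in PBS and 3.42, 3.79 and 3.87 in hepcidin, a difference of -0.72 (SE 0.22, 95% interval -1.21 to -0.24, adjusted p = 0.0913). It lay below the array median on most arrays and had the widest range of any member, 1.49 over the 12 arrays. For the other 98 the interval at 3 h lay within 2-fold, as for 98.2% of all genes. For 76 of the 99 it lay within 1.5-fold (76.8%, against 89.6% of all genes).

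Among the snoRNAs known for ribosomal RNA precursor cleavage, none passed the test at 1 h or 3 h. Nor did Snord13 (U13), which was listed with them without evidence here of a part in cleavage. Of the U14 copies, Snord14a differed by 0.43 at 1 h and 0.03 at 3 h. Snord14e differed by 0.02 at 1 h and 0.32 at 3 h (limma adjusted p = 0.0585 at 3 h). Snord118 (U8) differed by 0.02 at 1 h and 0.06 at 3 h, Snord13 (U13) by 0.34 and 0.19 (SE 0.20 at each time), and Snord22 (U22) by -0.04 and 0.02. Snora73a and Snora73b (both U17) differed by 0.01 and 0.27 at 1 h and by 0.29 and 0.33 at 3 h (adjusted p = 0.245 for Snora73b at 3 h). Leaving out 1 array at a time, Snord13 ran from 0.15 to 0.51 at 1 h and from -0.02, without PBS replicate 1 at 3 h, to 0.31 at 3 h. Snora73a ran from -0.13 to 0.19 and Snord118 from -0.18 to 0.13 at 1 h, so these genes have no settled direction there.

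None of the Rpl13a snoRNAs, known from work on lipotoxic and oxidative stress, passed the test. At 1 h and 3 h Snord32a differed by -0.01 and 0.00, Snord33 by -0.07 and 0.02, Snord34 by -0.14 and -0.06, and Snord35a by 0.10 and 0.15. The 95% interval of Snord32a at 3 h was -0.14 to 0.15. Snord47, one of the Gas5 snoRNAs, differed by -0.25 at both times (adjusted p = 0.709 and 0.271), while Gas5, a growth arrest-linked noncoding gene, differed by 0.02 and 0.22.

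Between 1 h and 3 h no snoRNA gene passed the test in PBS, against 0.45% of all genes (0.207% higher and 0.243% lower), or in hepcidin, against 5.05% (2.44% higher and 2.61% lower), and none in the difference of the hepcidin effects between times, against 1.03% (0.523% higher and 0.507% lower). At an unadjusted p under 0.05 limma gave 5, 15 and 9 members, against 10.6%, 16.6% and 10.1% of all genes, and the unmoderated linear model called 0 in each. Arrays of the times did not overlap for 16 members in PBS, 6 higher and 10 lower, against 17.7% of all genes (8.66% higher and 9.04% lower), and for 20 in hepcidin, 13 higher and 7 lower, against 20.1% (10.5% higher and 9.56% lower). Snora31, in Tpt1, came nearest to the threshold. It read 6.52, 6.46 and 6.41 in PBS at 1 h, 6.67, 6.40 and 6.28 in hepcidin at 1 h, 6.06, 6.16 and 6.03 in PBS at 3 h, and 6.08, 6.09 and 6.15 in hepcidin at 3 h. Both 3 h groups were below both 1 h groups, by -0.38 in PBS (limma adjusted p = 0.115) and -0.34 in hepcidin (limma adjusted p = 0.0518). Among members whose arrays did not overlap, the other largest falls in PBS were Snora44 at -0.33, Snord96a at -0.30 and Snord91a at -0.27. The largest rises in PBS were Snord72 at 0.35, Snord92 at 0.31, Snord88c at 0.26 and Snord118 at 0.16. Among members without overlap in hepcidin the other largest falls were Snora36b at -0.49, Snord4a at -0.48 and Snord70 at -0.26. The largest rises in hepcidin were Snord53 at 0.27, Snord49a and Snord104 at 0.24 and Snord16a at 0.21.

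A probe set for the host was present for 72 snoRNA genes in 52 hosts. Hosts were not filtered by signal, and Rps3a1, as above, lay below the array median. The counts of pairs below therefore include hosts whose probe set may report little of the host RNA. By values rounded to 2 decimals, the snoRNA and its host differed in the same direction for 33 of 72 pairs at 1 h and 33 of 72 at 3 h. Pairs with a rounded value of 0 were not counted as the same direction, so the rest are not all opposite. Across the 72 pairs at 3 h Pearson's r was -0.02, a description over pairs that share arrays and in part hosts. At 3 h 5 of the 52 hosts passed the test (9.62%, against 5.33% of all genes) and at 1 h none (0.559% of all genes). Over time 2 hosts passed in PBS (3.85%, against 0.45% of all genes) and 4 in hepcidin (7.69%, against 5.05%).

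Nop58 read 8.82, 8.78 and 8.69 in PBS and 9.19, 9.18 and 9.18 in hepcidin at 3 h. It rose 1.34-fold, a log2 difference of 0.42 (SE 0.08, limma adjusted p = 0.00595). At 1 h it read 9.13, 9.21 and 9.12 in PBS and 9.36, 9.07 and 9.17 in hepcidin, so the PBS arrays at 3 h were the low group, at -0.39 against PBS at 1 h (adjusted p = 0.0545). The comparisons share the PBS arrays at 3 h. Of its snoRNAs, Snord70 fell, as above, and Snord11 differed by 0.12 (adjusted p = 0.499). Nop56, the partner of Nop58, rose by 0.31 (limma adjusted p = 0.00965) while Snord57 and Snord110 within it differed by -0.08 and 0.02. Wdr43, a ribosome assembly factor, rose by 0.42 (limma adjusted p = 0.00632), with Snord53 at 0.36 and Snord92 at 0.06. Snhg4 rose by 0.46 (limma adjusted p = 0.0214), with Snora74a at 0.26, and Snx5, a sorting nexin, fell by 0.39 (limma adjusted p = 0.0109), with Snord17 at -0.08. From 1 h to 3 h Nop56 differed by -0.51 in PBS and -0.21 in hepcidin, and Wdr43 by -0.34 and 0.08. In the same order Snhg4 differed by -0.23 and 0.11, and Snx5 by 0.08 and -0.25. For Nop56, Wdr43 and Snhg4 the PBS arrays at 3 h were thus the low group, as for Nop58. Nop58, Nop56 and Wdr43 passed in 12 of 12 fits that left out 1 array. Snhg4 was lost without PBS replicate 2, hepcidin replicate 1 or hepcidin replicate 3 at 3 h, and Snx5 without PBS replicate 2, PBS replicate 3 or hepcidin replicate 3 at 3 h.

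**Figure D4:**
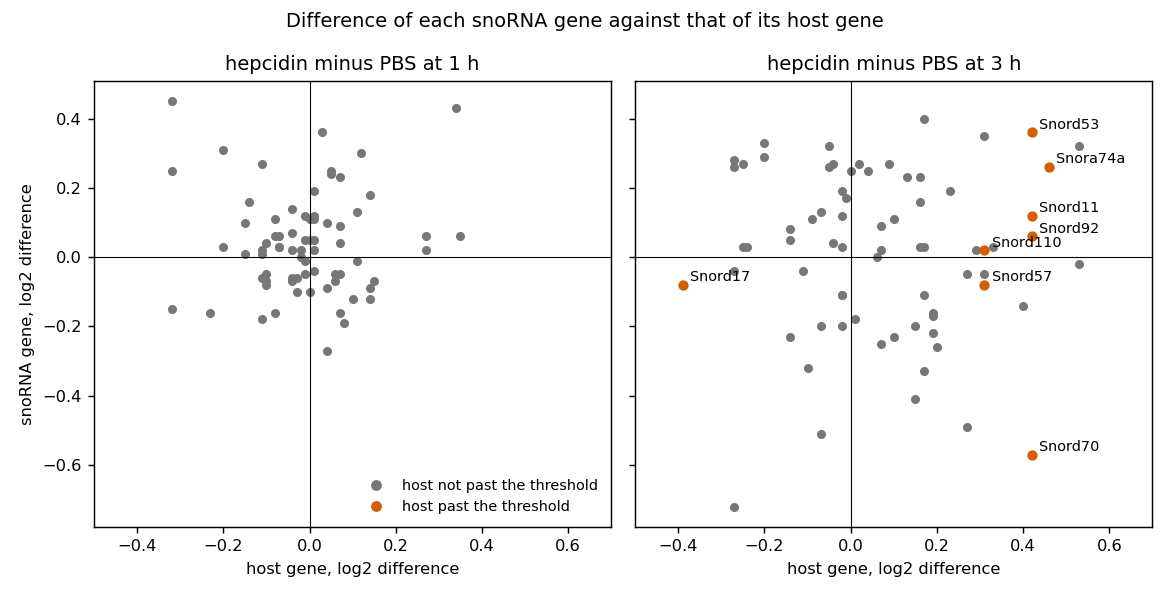
Log2 difference of each snoRNA gene (vertical axis) against that of its host gene (horizontal axis) for hepcidin against PBS at 1 h and 3 h, over 72 pairs, with hosts past the threshold coloured. The points show no common slope, with 33 of 72 pairs of the same sign at each time by rounded values. Hosts were not filtered by signal.

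The protein machinery of snoRNAs was described with short lists chosen by known function, to be read against the 2.8% of all genes that rose and the 2.53% that fell at 3 h. Of 3 measured core proteins of box C/D particles, 2 (Nop56 and Nop58) rose at 3 h, and Fbl, the methyltransferase, differed by 0.40 (limma adjusted p = 0.0648). From 1 h to 3 h these 3 differed by -0.51 to -0.39 in PBS and by -0.24 to -0.02 in hepcidin. Of 4 core proteins of box H/ACA particles none passed at 3 h, with Dkc1, the pseudouridine synthase, at 0.11, Nhp2 at 0.21, Nop10 at 0.06 and Gar1 at 0.15. In hepcidin from 1 h to 3 h 1 of the 4 passed (25%, against 5.05% of all genes). It was Dkc1, which fell by 0.35 (limma adjusted p = 0.0498, kept in 1 of 12 fits without 1 array). Of 11 assembly factors 2 rose at 3 h, Znhit6 by 0.36 (limma adjusted p = 0.0152) and Nolc1 by 0.27 (limma adjusted p = 0.0381). Nolc1 passed in only 2 of 12 fits without 1 array, and Znhit6 was lost without PBS replicate 1, PBS replicate 3 or hepcidin replicate 2 at 3 h. Of 10 processing and decay factors 1 rose at 3 h, Tgs1, which trimethylates the cap of some small RNAs, by 0.52 (limma adjusted p = 0.0026). In hepcidin from 1 h to 3 h Tgs1 was again the only 1 of the 10 that passed (10%, against 5.05% of all genes). It rose by 0.48 (limma adjusted p = 0.00521), and both calls were kept in 12 of 12 fits.

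Of 19 ribosome biogenesis genes 2 passed at 3 h (10.5%, against 5.33% of all genes). Bop1 rose by 0.47 (limma adjusted p = 0.00229) and Npm1, nucleophosmin, fell by 0.50 (limma adjusted p = 0.0309, kept in 8 of 12 fits). At 1 h 1 of the 19 rose (5.26%, against 0.559% of all genes), the transcription factor Myc, by 0.85 (SE 0.13, limma adjusted p = 0.00664). From 1 h to 3 h in PBS 1 of the 19 passed (5.26%, against 0.45% of all genes). It was Bop1, which fell by 0.40 (limma adjusted p = 0.0447). In the other lists Nop56, the only 1 of 3 box C/D core proteins that passed, fell by 0.51 (limma adjusted p = 0.00464). Nolc1, the only 1 of 11 assembly factors, fell by 0.49 (limma adjusted p = 0.00989). The host Gnl3 fell by 0.61 (limma adjusted p = 0.038). The PBS arrays at 3 h are again shared. Leaving out 1 array at a time kept the PBS calls of Bop1, Nop56, Nolc1 and Gnl3 in 1, 12, 9 and 3 of 12 fits. In hepcidin over the same times 1 of the 19 passed (5.26%, against 5.05% of all genes). It was Imp4, which fell by 0.30 (limma adjusted p = 0.0199, kept in 8 of 12 fits).

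Other short RNA genes at 3 h are read against the same 5.33% of all genes. Of 8 scaRNA genes, which guide modification in Cajal bodies, 1 passed (12.5%). Scarna2 rose by 0.85 (limma adjusted p = 0.0459), a call kept in 4 of 12 fits without 1 array. Of 543 microRNA genes 4 rose and 6 fell (1.84%), and of 6 Rnu genes none passed. Of 5 other stable small RNAs 1 passed (20%). Rpph1, the RNA of ribonuclease P, fell by 0.58 (limma adjusted p = 0.0237, kept in 9 of 12 fits). In hepcidin from 1 h to 3 h Scarna2 was again the only 1 of the 8 scaRNA genes that passed (12.5%, against 5.05% of all genes). It rose by 0.90 (limma adjusted p = 0.0372, kept in 6 of 12 fits).

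By the correlation of log2 signal over the 12 arrays, the genes most like Snord73a were Gch1 (r = 0.957), Noct (0.957) and Tfe3 (0.946). Those most like Snord70 were Gm8580 (0.952), Gm10268 (0.949) and Rps3a2 (0.947), and those most like Snord88c were Gm7665 (0.926), Arhgef4 (0.922) and Prm3 (0.917). They were picked as the highest of all genes and are a description only.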

How the data were processed

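RNA of 12 samples was measured on Affymetrix whole-transcript arrays. The values deposited by the authors are log2 signals per probe set. RMA and Partek are named in the submitters' processing notes, with no version, and no source used here names the genome build. That the log base is 2 was taken from the range of the values. Of 25429 probe sets, 754 had no single gene name and were left out, and 1 probe set per gene gave 24675 genes.

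Group means of the 4 groups were fitted with limma 3.58.1 in R 4.3.3 (lmFit, contrasts.fit, eBayes), with Benjamini-Hochberg adjustment over all genes within each comparison and a threshold of 0.05. The fit was tested on simulated data. Recovery was required there only for a change larger than any snoRNA difference here, so power at these sizes is not shown. Genes named were those past the threshold, the 4 largest differences each way without overlap, the 8 highest signals, and the cleavage, Rpl13a and Gas5 snoRNAs. The snoRNA genes and all lists were chosen with earlier results of these data known. Host genes were taken from spans in the RefSeq table, which gives no strand, where the same strand had been planned. Alternatives were another prior, no moderation, other scalings, a signal filter, array weights, a replicate block, only the groups compared, and each array left out. The number of arrays limits the precision. Members with no probe set in the table, such as Snord3a and Snord44, were not analysed here.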

Additional observations from a re-analysis of the deposited data

How the results depend on the processing

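The hepcidin count at 1 h stayed at 0 under every alternative run. No difference past the threshold changed sign, but 12 differences of single genes, none past it, and 3 of 5 medians did so under at least 1 alternative. The median at 1 h ran from -0.004 to 0.061 without 1 array. At 3 h the count of 3 became 8 with a trended and robust prior, 0 with the unmoderated linear model, 1 with median centring, 11 with only genes above the median mean, 0 with array weights, 12 at an adjusted p under 0.1 and 0 with only the groups compared, and 0 to 5 without 1 array. In PBS over time it became 1 with the signal filter and 1 with array weights, and 0 to 1 without 1 array, while the median log2 difference of 0.019 ran from -0.02 to 0.051. In hepcidin over time it became 1 with the trended prior, 2 with the filter and 1 at an adjusted p under 0.1, and 0 to 1 without 1 array. For the difference between times it was 0 to 1 without 1 array, and the median of 0.019 became -0.023 with median centring and ran from -0.012 to 0.07 without 1 array. The replicate block gave 3 at 3 h, with Snord104 (limma adjusted p = 0.0163), Snord73a (0.049) and Snord88c (0.0464). Deviations from group means correlated at -0.01 to 0.25 over 18 pairs of same-numbered arrays from different groups. Pairs with different numbers gave -0.22 to 0.17, and 10 of 12 arrays correlated best with their own number. The main fit did not use the numbers, and whether they mark pairing was not settled. The cause of these changes was not tested.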
